A study of Mus musculus with 43 samples.

Results

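Tigit, Cd226, Cd96, Havcr2, Cd160 and Cd200 encode immunoglobulin-superfamily proteins of the lymphocyte surface, and their transcripts were followed in mouse CD4 T cells that met antigen at different doses and for different times. These 6 genes, of 22180 measured, were chosen by name, and each was read by the 1 probe set that carried its symbol alone. Tigit, Cd226 and Cd96 form 1 receptor family with shared ligands. Havcr2 (TIM-3) was the single TIM receptor among the 6, while Cd160 and Cd200 belong to other receptor and ligand pairs.

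TIGIT is an inhibitory receptor of T and NK cells that binds PVR (CD155) and, more weakly, nectin-2. CD226 (DNAM-1) is an activating receptor for the same ligands, which TIGIT outcompetes, and it works together with the integrin LFA-1. CD96 is a further receptor of PVR, with inhibitory and costimulatory roles both described. TIM-3 is an inhibitory receptor of T cells under lasting stimulation, with galectin-9, HMGB1 and CEACAM1 among its ligands. CD160 binds HVEM (Tnfrsf14), which also binds the inhibitory receptor BTLA and the cytokine LIGHT (Tnfsf14). CD200 is a surface ligand whose receptors sit mainly on myeloid cells and dampen them.

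All cells were AND T cells, which carry a transgenic receptor for a moth cytochrome c peptide, lack Rag2 and bear CD45.1, and they were transferred to recipients and sorted back as CD4+CD90.2+CD45.1+ cells. In iMCC recipients dendritic cells make the peptide while doxycycline is in the drinking water, and every iMCC recipient had anti-CD40 antibody and 100 µg/ml doxycycline around the transfer, kept to day 3. After that the none groups drank 0 µg/ml (5 arrays on day 10 and 5 on day 30), the low groups 10 µg/ml (5 and 5 arrays) and the intermediate (int) groups 100 µg/ml (4 and 5 arrays). The off group had the int dose to day 10 and 0 µg/ml from then to day 30 (5 arrays). The high group came on day 10 from cMCC recipients, another strain, whose MHC class II positive cells produce it at all times without doxycycline (4 arrays, numbered 2 to 5). Naive AND cells, taken 3 days after they were put into non-transgenic recipients, gave 5 further arrays. Since all day 30 cells were sorted in a second series, a difference between days and one between sort series cannot be told apart. The sort series of the naive cells is not stated in the labels.

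Levels are deposited log2 signals, and differences are log2 fold changes ± SE from 1 limma fit over all 43 arrays, called at an adjusted p under 0.05 over all genes. Nothing in the labels ties samples of 1 group to separate animals, and p-values then measure only the spread between these samples, which may be technical. Precision is limited by how many arrays a group has, and in sorted pools fewer cells that express a gene and less RNA per cell cannot be told apart. Cd4 had group means of 9.12 to 10.0 and Cd3e of 10.59 to 11.44, while Rag2 stood at 2.59 to 3.04. Of 6 B cell markers 5 were measured. Their mean was 5.97 and 4.86 on naive replicates 3 and 4, against 3.09 to 3.97 on the other arrays. The 10 myeloid markers averaged 5.6 and 5.21 on the same 2 arrays and 4.25 on naive replicate 5, so comparisons of the 6 genes with naive cells were also fitted without replicates 3 and 4. On day 10 none replicates 3, 4 and 5 they averaged 3.92, 4.08 and 3.8, against 3.21 and 3.05 on replicates 1 and 2. In day 30 none cells 2 of the 10 were called lower than in day 10 none cells, where 3.43% of all genes were called. The part of other cells in the day 10 comparisons with none was not tested.

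Across the 9 groups, Tigit had the widest spread of group means of the 6 genes, 4.53 on the log2 scale, and 99.9% of all genes had a narrower one. The spread was 2.66 for Cd200, 1.74 for Cd226, 1.7 for Cd160 and 1.57 for Cd96, each wider than in 97.2% of genes or more. For Havcr2 it was 0.31, with 24.1% of genes narrower. Tigit was highest in day 30 int cells and lowest in naive cells, Cd200 highest in day 10 high cells, and Cd226 and Cd96 were both lowest in day 10 high cells. Consecutive groups in the order of levels overlapped for every gene, with 1 exception, Cd200 in the day 10 high and int groups.

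**Figure D1:**
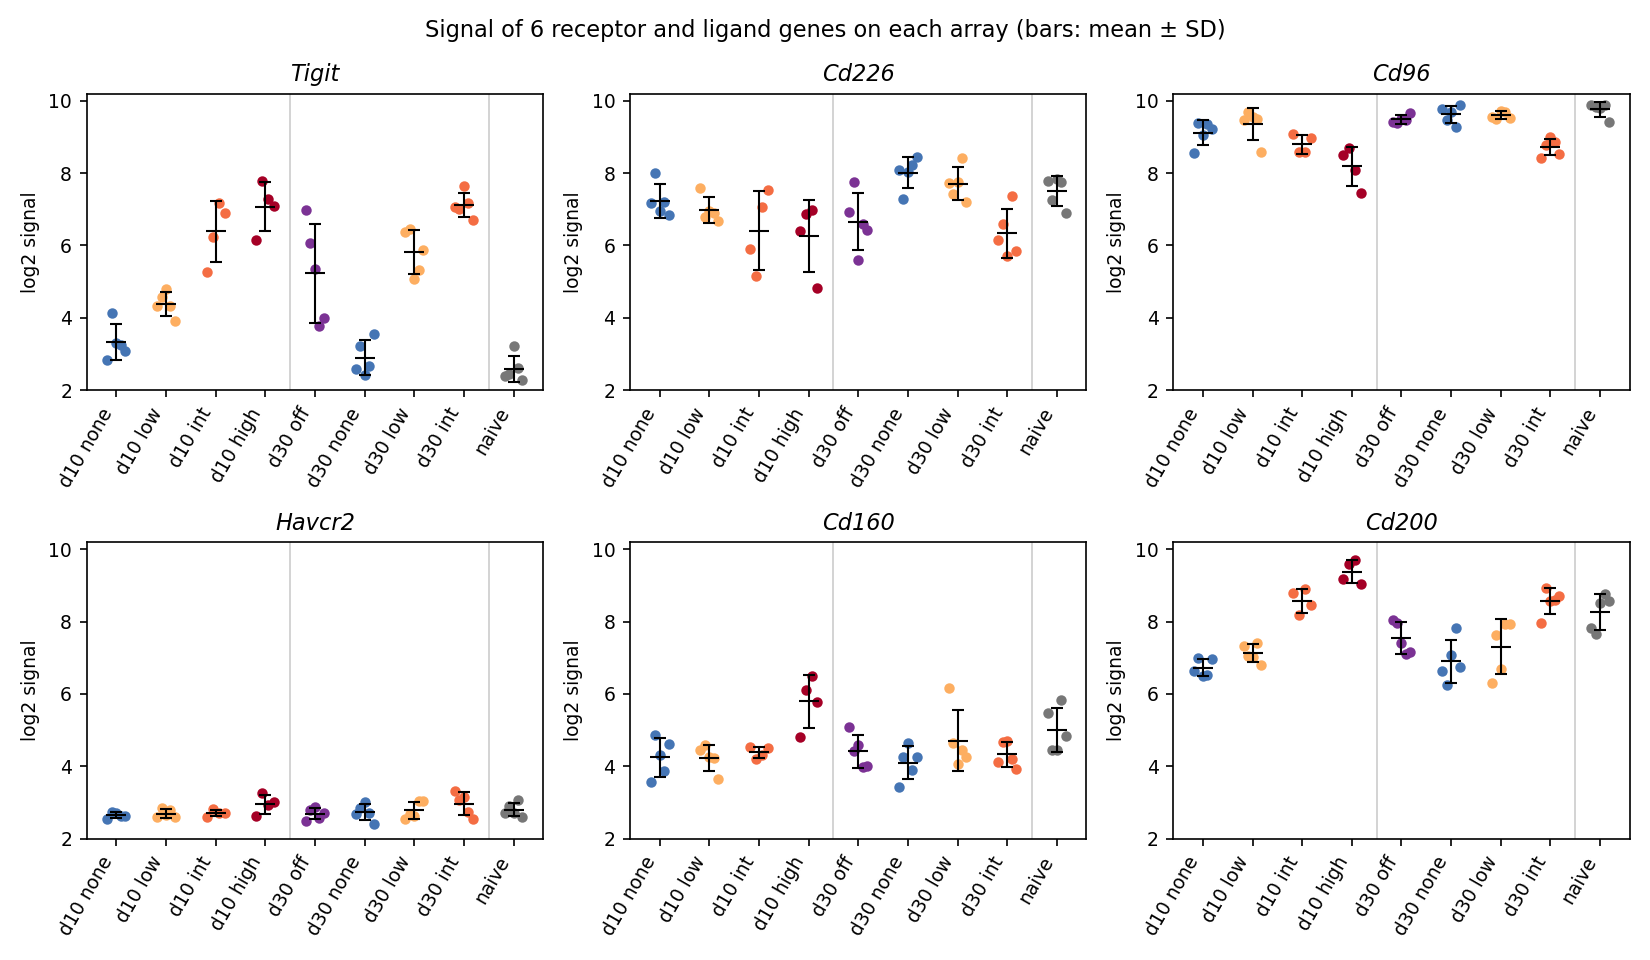
Log2 signal (vertical axis) of the 6 genes on each of 43 arrays, by group, with the dose series of each day from none upwards. Points are arrays and black bars are the mean ± SD of a group. Tigit spanned 4.53 between its highest and lowest group means and Havcr2 0.31.

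The promoters of Tigit, Cd200 and Cd96 are shown because these 3 genes, all on chromosome 16, held most of the antigen-dependent differences described below, Tigit and Cd200 towards higher and Cd96 towards lower signal. Each line gives the 250 bases before the gene start from RefSeq on build GRCm38.p6, 5′ to 3′ on the gene's strand, which is minus for all 3. The windows are chr16:43664185-43664434 for Tigit, chr16:45409054-45409303 for Cd200 and chr16:46120249-46120498 for Cd96. Capitals mark matches, on either strand, to the core GGAAA that NFAT factors bind, or to GCGNGGGCG, which EGR factors bind.
Tigit: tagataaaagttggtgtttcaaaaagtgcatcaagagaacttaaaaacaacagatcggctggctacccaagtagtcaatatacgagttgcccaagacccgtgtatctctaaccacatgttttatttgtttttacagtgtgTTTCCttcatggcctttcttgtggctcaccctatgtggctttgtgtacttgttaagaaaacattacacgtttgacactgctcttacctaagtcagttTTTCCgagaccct
Cd200: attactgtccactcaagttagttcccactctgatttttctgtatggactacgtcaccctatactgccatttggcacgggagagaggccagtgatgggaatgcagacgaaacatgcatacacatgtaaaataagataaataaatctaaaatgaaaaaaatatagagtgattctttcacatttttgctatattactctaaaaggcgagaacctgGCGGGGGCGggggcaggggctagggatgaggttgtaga
Cd96: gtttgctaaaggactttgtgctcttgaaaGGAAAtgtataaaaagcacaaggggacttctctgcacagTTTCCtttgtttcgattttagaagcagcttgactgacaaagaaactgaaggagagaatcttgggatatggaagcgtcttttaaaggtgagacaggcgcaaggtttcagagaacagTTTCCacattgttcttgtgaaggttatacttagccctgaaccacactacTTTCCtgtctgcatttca
The Tigit window held GGAAA, read as TTTCC, at positions -110 and -13 from the gene start, and the Cd96 window held it at -221, -182, -67 and -18. GGAAA contains the ETS core GGAA and occurred in 55.6% of 32851 promoter windows of this length. The Cd200 window held the EGR letters at -38, as did 4.7% of all windows at any place. Neither the AP-1 letters TGANTCA (6.75% of windows) nor the NBRE letters AAAGGTCA of NR4A factors (1.34%) occurred in these 3 windows. The motifs were chosen after values had been seen, and a match describes letters only.

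On day 10, each dose of lasting antigen was first set against none. For low and int this asks what antigen after the priming phase does to the cells. Doxycycline differs along with antigen there, and the 2 cannot be told apart. High cells differ from none cells in the priming phase as well. The comparisons share the none arrays. Tigit was called higher in int and in high cells, by 3.07 ± 0.42 (adjusted p = 5.48e-06) and 3.76 ± 0.42 (adjusted p = 1.08e-08). Along the doses, its signals were 2.82, 4.14, 3.3, 3.25 and 3.08 on none arrays and 4.33, 4.58, 4.8, 4.32 and 3.91 on low arrays. The int arrays gave 5.26, 6.24, 7.16 and 6.9, and the high arrays 6.16, 7.79, 7.27 and 7.08. Every int and every high array lay above all none arrays, and 4 of 5 low arrays did. The difference of low from none was 1.07 (95% interval 0.27 to 1.87), with an unadjusted p of 0.0102 and an adjusted p of 1, and it was not called. In that comparison 1 gene of 22180 (0.00451%) was called and 0 of the 6 receptor and ligand genes. Int cells also had more Tigit than low cells (2.00 ± 0.42, adjusted p = 0.00792), with all 4 int arrays above all low ones. That call ended without int replicate 3 (adjusted p = 0.0952) or 4 (adjusted p = 0.0654).

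Cd200 was called in the same 3 comparisons of day 10 as Tigit. Its signals were 6.63, 6.98, 6.49, 6.53 and 6.97 in none cells, 7.33, 7.04, 7.02, 7.41 and 6.8 in low cells, 8.78, 8.17, 8.9 and 8.46 in int cells, and 9.18, 9.6, 9.7 and 9.03 in high cells. The high, int and none arrays did not overlap with each other. Cd200 rose in int cells by 1.86 ± 0.29 (adjusted p = 4.57e-05) and in high cells by 2.66 ± 0.29 (adjusted p = 4.87e-09) relative to none. It was also higher in int than in low cells (1.46 ± 0.29, adjusted p = 0.00372). Between high and int cells the difference was 0.80 (95% interval 0.19 to 1.41, adjusted p = 0.175), which was not called although the arrays did not overlap. With Tigit and Cd200, 2 of the 6 genes were called in int against none, where 1.24% of all genes were, and the same 2 in int against low, where 0.541% were. Eomes, a T-box factor of NK cells and CD8 and some CD4 T cells, and 1 of 5 measured NK and CD8 markers, moved in the same contrasts. It averaged 3.75 in none, 4.05 in low and 6.9 in int cells. In high cells, where Tigit and Cd200 were called against none, Eomes stood at 3.84, 3.95, 3.88 and 4.41 and was not called. In int cells it was higher by 3.15 ± 0.51 than in none (adjusted p = 8.3e-05) and by 2.85 ± 0.51 than in low cells (adjusted p = 0.000845), while the other 4 markers were not called against none. The mean of the 5 markers, Eomes included, was 4.04 to 4.8 on int arrays, against 3.47 to 3.88 on none arrays. Their median difference was 0.08, against -0.01 over all genes. The part of Eomes in the Tigit and Cd200 differences was not tested.

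Cd96, the further PVR receptor, fell in the high group. The high arrays gave 8.51, 8.69, 8.08 and 7.46, against 8.56, 9.39, 9.06, 9.35 and 9.23 on none arrays. Of the 4 high arrays 3 lay below all none arrays (-0.93 ± 0.19, adjusted p = 0.000885). In int cells Cd96 stood at 9.08, 8.58, 8.57 and 8.96, within the none range, and was not called (-0.32, 95% interval -0.71 to 0.07, adjusted p = 0.728). Cd226, the activating counterpart of TIGIT, was more scattered, at 7.16, 8.01, 6.96, 7.19 and 6.83 in none cells, 5.89, 5.15, 7.07 and 7.54 in int cells, and 6.39, 6.87, 6.99 and 4.82 in high cells. It was called in neither comparison with none, at -0.82 (95% interval -1.63 to 0.00, adjusted p = 0.558) for int and -0.96 (95% interval -1.78 to -0.15, adjusted p = 0.193) for high.

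Cd160 differed with high antigen. Its signals were 3.56, 4.87, 4.32, 3.87 and 4.61 in none cells, 4.53, 4.2, 4.31 and 4.5 in int cells, and 4.8, 6.1, 6.5 and 5.78 in high cells. The high arrays lay above all int arrays, and 3 of 4 lay above all none arrays. The rise was 1.55 ± 0.34 against none (adjusted p = 0.00183) and 1.41 ± 0.35 against int (adjusted p = 0.0141). The difference from int was not called without high replicate 3 (adjusted p = 0.0605) or 4 (adjusted p = 0.0909). In all, 4 of the 6 genes were called in high against none (Tigit, Cd200, Cd96 and Cd160), where 5.25% of all genes were, and 1 in high against int, where 2.99% were. Between high and int cells Tigit differed by 0.69 (95% interval -0.21 to 1.58, adjusted p = 0.569) and Cd96 by -0.61 (95% interval -1.02 to -0.21, adjusted p = 0.0952). Cd96 was called there with array weights (adjusted p = 0.0298), without dim genes (adjusted p = 0.0447) and without high replicate 3 (adjusted p = 0.031).

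A marker of the sort and a marker of NK cells were also called in high against none. Thy1, which encodes the sort marker CD90, was lower in high than in none cells (-1.07 ± 0.12, adjusted p = 4.19e-09). It was the 1 of 6 measured T cell markers called, and their median difference was 0.28, against 0.01 over all genes. Klrb1c (NK1.1) was higher (1.60 ± 0.29, adjusted p = 0.000141), and it was the 1 of 5 measured NK and CD8 T cell markers called. The mean of the 5, Klrb1c included, ran from 3.69 to 4.26 on high arrays and from 3.47 to 3.88 on none arrays. Their median difference was 0.13, against 0.01 over all genes. Ncr1 stood at 2.9 in high and 2.77 in none cells and Cd8a at 3.14 and 3.16, near the low end of the scale. The part of such cells in the Cd160 and Cd96 differences was not tested. High cells also came from another recipient strain and another kind of antigen-presenting cell, so dose and strain cannot be told apart.

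**Figure D2:**
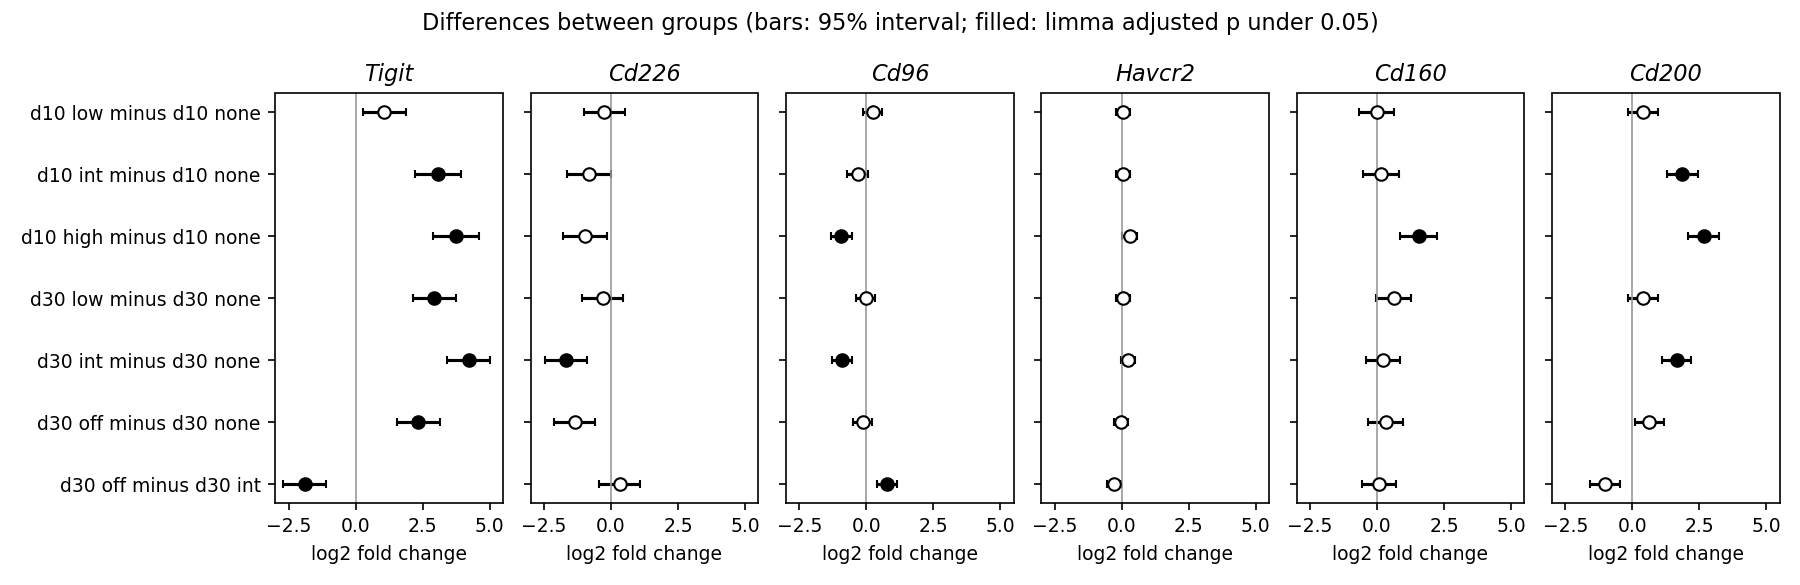
Log2 fold changes (horizontal axis) of the 6 genes in 7 comparisons, with the first-named group over the second. Circles are limma estimates, bars are unadjusted 95% intervals, and filled circles have an adjusted p under 0.05. Tigit reached 4.23 in day 30 int over none, where Cd226 and Cd96 were at -1.68 and -0.90.

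On day 30 the same doses were set against none, with the none arrays again shared. Tigit was higher at both doses, by 2.93 ± 0.40 in low cells (adjusted p = 1.22e-05) and by 4.23 ± 0.40 in int cells (adjusted p = 1.03e-09). None arrays gave 2.57, 3.23, 2.42, 2.67 and 3.56, low arrays 6.38, 6.45, 5.08, 5.33 and 5.87, and int arrays 7.07, 7.01, 7.63, 7.17 and 6.7. The 3 groups did not overlap with each other. The difference of int from low, 1.29 (95% interval 0.49 to 2.10, adjusted p = 0.171), was not called. In low against none, Tigit was the 1 gene of the 6 that was called, where 0.654% of all genes were. Cd22, an inhibitory receptor listed among the B cell markers, was also called there, at a mean of 6.99 in low cells, against 4.65 in none cells (2.35 ± 0.34, adjusted p = 4.93e-05). The other 4 measured B cell markers were not called, with means of 2.78 to 3.43 in low cells, against 2.82 to 3.7 in none cells, and the mean over the 5 was 3.78 to 3.97 on low arrays and 3.34 to 3.64 on none arrays. The part of other cells in the Tigit difference was not tested.

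In int against none, 4 of the 6 genes were called, where 2.21% of all genes were, 2 upwards and 2 downwards. Besides Tigit, Cd200 was higher (1.66 ± 0.27, adjusted p = 7.33e-05). Its int arrays stood at 7.97, 8.94, 8.58, 8.59 and 8.72 and its none arrays at 6.62, 6.26, 7.07, 7.81 and 6.74, with no overlap. Cd96 fell by 0.90 on the log2 scale (SE 0.18, adjusted p = 0.0015), to 8.43, 8.77, 9.0, 8.85 and 8.54 in int cells, against 9.77, 9.48, 9.69, 9.28 and 9.88 in none cells, again without overlap. Cd226 fell by 1.68 (SE 0.38, adjusted p = 0.00679), to 6.16, 6.6, 5.7, 7.38 and 5.84 in int cells, against 8.09, 7.29, 8.02, 8.21 and 8.45 in none cells. Int replicate 4 lay inside the none range of Cd226, and the other 4 int arrays lay below it. Eomes was higher in the same contrast, at a mean of 7.41 in int cells, against 3.3 in none cells (4.11 ± 0.48, adjusted p = 8.5e-08), as the 1 of 5 NK and CD8 markers called. Ncr1 averaged 2.89 in int and 3.29 in none cells and Cd8a 3.31 and 3.23. The mean of the 5, Eomes included, was 4.03 to 4.56 on int arrays, against 3.42 to 3.68 on none arrays. Their median difference was 0.07, against -0.01 over all genes. The part of Eomes in these 4 differences was not tested.

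At low antigen on day 30, Cd226 and Cd96 stood near their none levels. Cd226 averaged 7.7 ± 0.46 in low and 8.01 ± 0.44 in none cells (SD, n = 5 each), a difference of -0.31 (95% interval -1.08 to 0.46). Cd96 averaged 9.6 ± 0.11 and 9.62 ± 0.24 in the same groups, a difference of -0.02 (95% interval -0.39 to 0.34). Tigit was thus called higher in low cells where neither partner was called. Int against low gave a fall of Cd96 (-0.88 ± 0.18, adjusted p = 0.0093) and a rise of Cd200 (1.26 ± 0.27, adjusted p = 0.0149), both without overlap. These were 2 of the 6 genes, where 0.546% of all genes were called. The Cd200 call ended without low replicate 1 (adjusted p = 0.0904), low replicate 3 (adjusted p = 0.0773) or int replicate 2 (adjusted p = 0.0604), or when the fit held int and low arrays alone (adjusted p = 0.13). Cd226 differed between int and low by -1.36 (95% interval -2.13 to -0.60, adjusted p = 0.0983), which was called without dim genes (adjusted p = 0.0472) or without int replicate 4 (adjusted p = 0.0439).

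**Figure D3:**
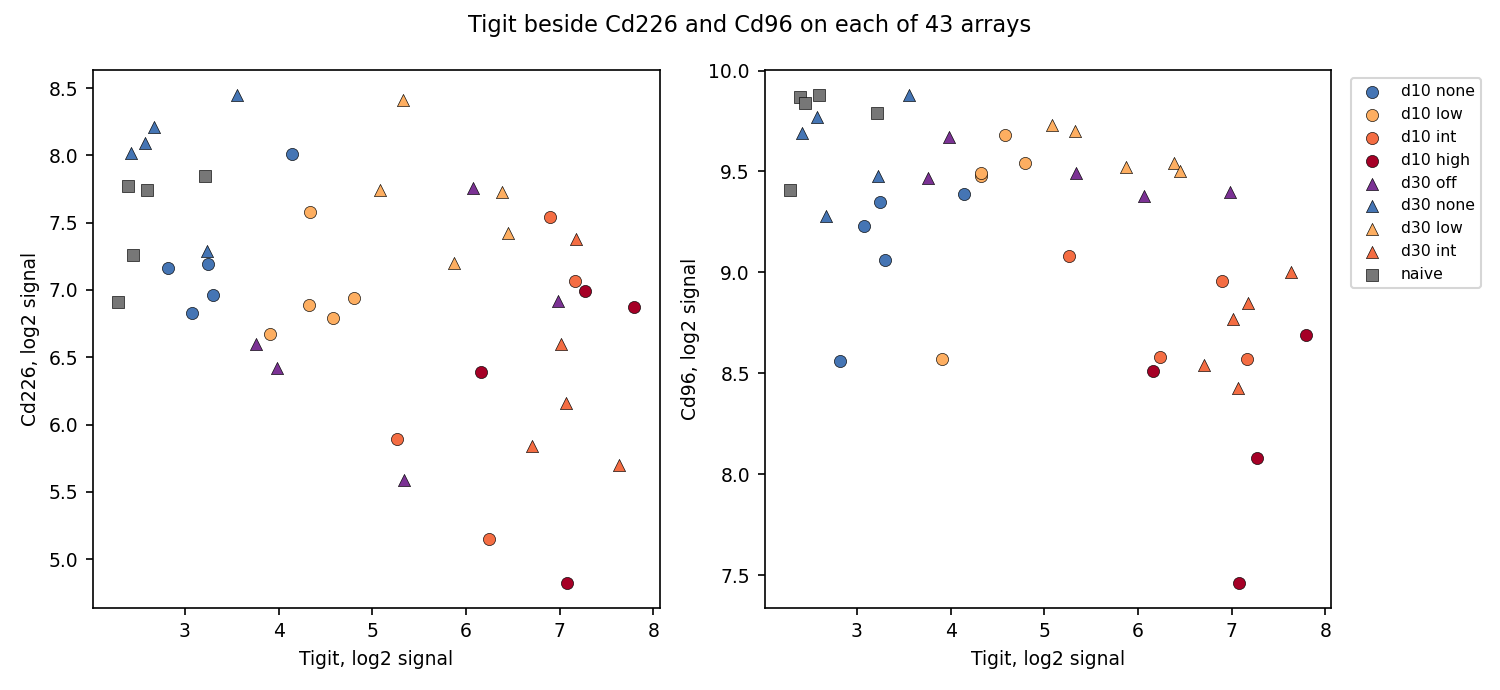
Log2 signal of Cd226 (left) and Cd96 (right) against that of Tigit on each of 43 arrays, coloured by dose, with circles for day 10, triangles for day 30 and squares for naive cells. Day 30 low arrays had Tigit at 5.08 to 6.45 and Cd96 at 9.5 to 9.73, while day 30 int arrays had Tigit at 6.7 to 7.63 and Cd96 at 8.43 to 9.0.

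Over the 9 group means, Pearson's r was -0.773 between Tigit and Cd226, -0.745 between Tigit and Cd96 and 0.814 between Cd226 and Cd96. These are descriptions over groups that were measured on the same arrays. After each group's mean was taken out, the same r over 43 arrays was 0.297, 0.054 and 0.363, so the inverse relation of Tigit to the other receptors was seen between groups and not among arrays of a group.

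Withdrawal of antigen was read from the off group, which had int antigen to day 10. Off cells kept more Tigit than none cells (2.34 ± 0.40, adjusted p = 0.00158) and had less than int cells (-1.89 ± 0.40, adjusted p = 0.0102). The 5 off arrays, replicates 1 to 5, gave 6.98, 6.07, 5.34, 3.76 and 3.98, an SD of 1.37 against 0.34 in int and 0.48 in none cells. All 5 exceeded the highest none array (3.56), and 4 lay below the lowest int array (6.7). The difference from int was not called without off replicate 4 (adjusted p = 0.0854) or 5 (adjusted p = 0.0782). Neither difference was called with only the 2 groups in the fit (adjusted p = 0.128 against none and 0.196 against int).

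Cd96 in off cells stood at 9.4, 9.38, 9.49, 9.47 and 9.67, above every int array and inside the none range. It was higher than in int cells (0.76 ± 0.18, adjusted p = 0.0298) and differed from none by -0.14 (95% interval -0.50 to 0.23, adjusted p = 0.833). That call ended without int replicate 1, 2 or 5 (adjusted p = 0.115, 0.0626 and 0.0972) or off replicate 3, 4 or 5 (adjusted p = 0.076, 0.0778 and 0.11). Cd200 in off cells stood at 8.05, 7.95, 7.42, 7.09 and 7.17, with 1 array inside the int range and 3 inside the none range, and was called against neither int (-1.02, 95% interval -1.57 to -0.48, adjusted p = 0.0826) nor none (0.64, 95% interval 0.09 to 1.18, adjusted p = 0.363). The difference from int was called with array weights (adjusted p = 0.0424), without dim genes (adjusted p = 0.0365) and without int replicate 1 or off replicate 1 (adjusted p = 0.0423 and 0.0414). Cd226 stood at 6.92, 7.76, 5.59, 6.6 and 6.42, with differences of 0.32 from int (adjusted p = 0.931) and -1.35 from none (95% interval -2.12 to -0.59, adjusted p = 0.131). In off against none 1 of the 6 genes was called, where 0.266% of all genes were, and in off against int 2 were, where 0.464% were.

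Some other transcripts, picked after their values were seen, set off replicates 1 and 2 apart from the rest. How many of all genes do so was not counted. Tigit was highest on replicates 1 and 2 too, but replicate 3 (5.34) stood nearer to replicate 2 (6.07) than to replicates 4 and 5 (3.76 and 3.98). Eomes was lower in off than in int cells (-2.30 ± 0.48, adjusted p = 0.0087) and stood at 6.75, 6.86, 4.27, 3.27 and 4.43 on off replicates 1 to 5. Ptpn11 (SHP-2) stood at 7.93, 8.21, 6.31, 6.85 and 7.07. S100a8, a neutrophil and monocyte gene, ran the other way at 5.31, 5.44, 7.9, 7.34 and 8.49. Replicates 1 and 2 thus had the highest Tigit, Eomes and Ptpn11 and the lowest S100a8. The likeness went no further for Ptpn11, which was lowest on replicate 3 (6.31), where Tigit was next highest (5.34). Of the 10 myeloid markers, S100a8 (3.44 ± 0.79, adjusted p = 0.0365) and S100a9 (2.87 ± 0.67, adjusted p = 0.0458) were called higher in off than in none cells. The mean of the 10 was 3.36 to 4.18 on off, 3.17 to 3.64 on int and 2.97 to 3.27 on none arrays of day 30. On day 10 none arrays that mean was 3.05 to 4.08. Of the other 8, which were not called, Lyz2 averaged 3.55 in off and 2.84 in none cells, Csf1r 3.47 and 3.12, and Itgax 2.78 and 2.73, while the other 5, Itgam and Cd14 among them, had lower means in off cells (2.6 to 3.09, against 2.89 to 3.33 in none cells). Cd22 was called higher in off than in none cells too, at means of 6.32 and 4.65 (1.67 ± 0.34, adjusted p = 0.0137), and the other 4 measured B cell markers averaged 2.75 to 3.24 in off cells, against 2.82 to 3.7 in none cells. The part of other cells in the off values was not tested.

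**Figure D4:**
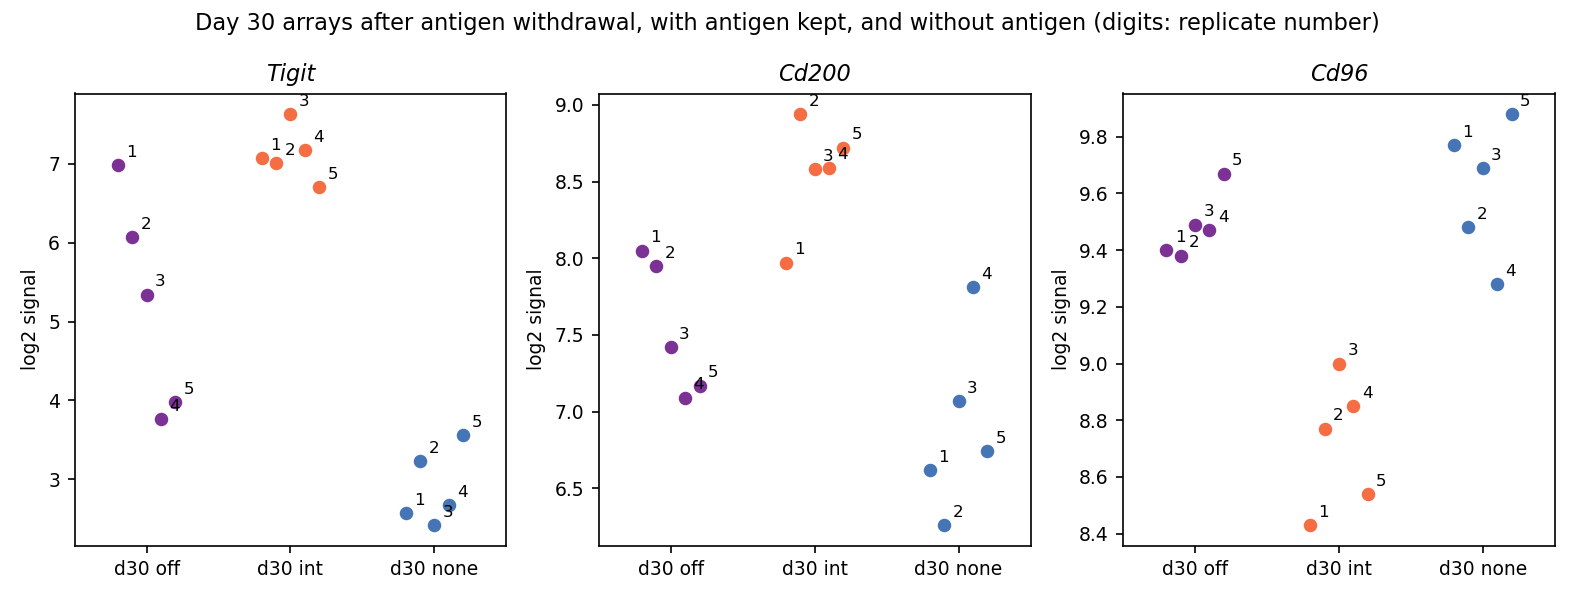
Log2 signal of Tigit, Cd200 and Cd96 on day 30 in off, int and none cells, with a point for each array and its replicate number beside it. Off arrays spread from 3.76 to 6.98 for Tigit and from 9.38 to 9.67 for Cd96.

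Day 30 was also set against day 10 at each dose, where the sort series differs as well. Tigit was higher in low cells on day 30 than in low cells on day 10 (1.43 ± 0.40, adjusted p = 0.0367), with all 5 day 30 arrays above all day 10 arrays. This call ended on leaving out any 1 of the 5 day 10 low arrays or day 30 low replicate 1, 2 or 5 (adjusted p = 0.0552 to 0.0897). Tigit was the 1 of the 6 genes called there, where 2.87% of all genes were. The test of whether the effect of low antigen on Tigit differed between the days gave 1.86 ± 0.56 (unadjusted p = 0.00191, adjusted p = 0.481) and was not called. For the int effect it gave 1.15 ± 0.58 (adjusted p = 0.748). In these tests 0.0316% and 0.0902% of all genes were called, and 0 of the 6. With no adjustment, 1 of the 6 passed in each, Tigit for the low and Cd96 for the int effect (-0.58, 95% interval -1.11 to -0.05).

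Between the days, 0 of the 6 genes were called in none cells and 0 in int cells, where 3.43% and 0.712% of all genes were. With no adjustment over genes, 2 of the 6 passed in none cells, Cd96 with a difference of 0.50 (95% interval 0.14 to 0.87) and Cd226 with 0.78 (95% interval 0.02 to 1.55), and 0 of the 6 passed in int cells. Off cells on day 30 were compared with int cells on day 10, the point at which their antigen was withdrawn. Cd96 was higher in off cells (0.68 ± 0.19, adjusted p = 0.0467) and Cd200 lower (-1.04 ± 0.29, adjusted p = 0.0432), 2 of 6 genes, where 1.94% of all genes were called. Both sets of arrays were without overlap, but the calls were at the edge. For Cd96 the call ended without day 10 int replicate 2, 3 or 4 or any 1 of the 5 off arrays (adjusted p = 0.0564 to 0.176), and for Cd200 without int replicate 1, 3 or 4 or off replicate 3, 4 or 5 (adjusted p = 0.0774 to 0.164). Cd96 was also not called without the trend (adjusted p = 0.0574), nor Cd200 with quantile normalization (adjusted p = 0.0599). Tigit differed by -1.16 (95% interval -2.02 to -0.31, adjusted p = 0.171) and was called without off replicate 1 (-1.60, adjusted p = 0.021).

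Naive cells had the lowest group mean of Tigit, with arrays at 2.39, 2.45, 3.21, 2.6 and 2.29. They differ from the other groups in time after transfer, recipient and doxycycline as well as in priming, and they are shared by the next comparisons. Tigit was higher than in naive cells in 6 of 8 groups, by 1.80 in day 10 low cells (adjusted p = 0.00362), 3.80 in day 10 int cells (adjusted p = 1.23e-08) and 4.49 in day 10 high cells (adjusted p = 6.96e-11). On day 30 it was higher by 3.23 in low (adjusted p = 1.42e-07), 4.53 in int (adjusted p = 1.31e-11) and 2.64 in off cells (adjusted p = 1.04e-05). In the none groups, primed and then left without antigen, the difference was 0.73 on day 10 (95% interval -0.07 to 1.53) and 0.30 on day 30 (95% interval -0.50 to 1.11), and neither was called. All arrays of the 6 called groups lay above all naive arrays. Without naive replicates 3 and 4 the same 6 differences were called, at 2.01 in day 10 low (adjusted p = 0.00942), 4.01 in day 10 int (adjusted p = 1.34e-07), 4.70 in day 10 high (adjusted p = 1.58e-09), 3.45 in day 30 low (adjusted p = 1.61e-06), 4.74 in day 30 int (adjusted p = 5.03e-10) and 2.85 in off cells (adjusted p = 5.95e-05).

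Cd200 in naive cells stood at 7.81, 7.67, 8.52, 8.76 and 8.56. It was lower than that in day 10 none (-1.54 ± 0.27, adjusted p = 0.000157), day 10 low (-1.14 ± 0.27, adjusted p = 0.00744), day 30 none (-1.36 ± 0.27, adjusted p = 0.00113) and day 30 low cells (-0.96 ± 0.27, adjusted p = 0.0315). In day 10 high cells it was higher than in naive cells (1.11 ± 0.29, adjusted p = 0.0115). In int cells it stood near the naive level, with differences of 0.31 on day 10 (95% interval -0.27 to 0.89) and 0.30 on day 30 (95% interval -0.25 to 0.84). Without naive replicates 3 and 4 the differences of day 10 low and day 30 low cells from naive were -0.89 (adjusted p = 0.179) and -0.71 (adjusted p = 0.273) and were not called. Those of day 10 none (-1.29, adjusted p = 0.015), day 30 none (-1.11, adjusted p = 0.0392) and high cells (1.36, adjusted p = 0.00608) were called without them as well. The day 30 low call also ended with array weights (adjusted p = 0.0503), with only the groups compared (adjusted p = 0.174) and without low replicate 1 or 3 or naive replicate 3, 4 or 5 (adjusted p = 0.0827 to 0.156). The high call ended without high replicate 3 or 4 (adjusted p = 0.0542 and 0.0609) or naive replicate 2 (adjusted p = 0.0525).

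Cd96 in naive cells, at 9.87, 9.84, 9.79, 9.88 and 9.41, was at its highest group mean. It was lower in day 10 int (-0.96 ± 0.19, adjusted p = 0.00104), day 10 high (-1.57 ± 0.19, adjusted p = 5.11e-08) and day 30 int cells (-1.04 ± 0.18, adjusted p = 8.74e-05), each without overlap. Day 10 none cells were also lower (-0.64 ± 0.18, adjusted p = 0.034). That call ended without naive replicates 3 and 4 (-0.59, adjusted p = 0.243), and without none replicate 1 or 3 or any 1 of naive replicates 1 to 4 (adjusted p = 0.0573 to 0.185). Cd226 was not called against naive cells, with naive arrays at 7.77, 7.26, 7.85, 7.74 and 6.91. Its largest differences were -1.24 in day 10 high (95% interval -2.05 to -0.43, adjusted p = 0.0687) and -1.17 in day 30 int cells (95% interval -1.94 to -0.40, adjusted p = 0.0705). The calls for Cd226 turned on the setting and on single arrays. Quantile normalization or leaving out dim genes called both (adjusted p = 0.0404 and 0.0331 for high, 0.0481 and 0.0311 for day 30 int cells), and for day 30 int cells so did a fit of only the groups compared (adjusted p = 0.0412) or with a replicate block (adjusted p = 0.0462). Leaving out high replicate 4 called the difference of high cells (adjusted p = 0.0399). Leaving out day 30 int replicate 4 called that of day 30 int cells (adjusted p = 0.0231). In day 10 int cells Cd226 was called without int replicate 4 (-1.47, adjusted p = 0.0499). Without naive replicates 3 and 4 the differences of high and day 30 int cells were -1.05 (adjusted p = 0.28) and -0.98 (adjusted p = 0.325).

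Against naive cells, the members called on day 10 were 2 of 6 in none, 2 in low, 2 in int and 3 in high cells, where 3.3%, 3.47%, 3.15% and 4.82% of all genes were called. On day 30 they were 1 of 6 in none, 2 in low, 2 in int and 1 in off cells, where 4.33%, 3.66%, 4.47% and 4.36% of all genes were. Cd160 was not called in any of these comparisons. Its naive arrays, at 5.46, 4.46, 4.46, 5.83 and 4.84, overlapped with those of the high group, which differed by 0.79 (95% interval 0.11 to 1.46, adjusted p = 0.238).

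Havcr2 gave no call in any of the 22 comparisons or 2 tests between days. Its signal was 2.4 to 3.33 on all 43 arrays, near the low end of a scale that began at 1.46. The highest group means were 2.96 ± 0.32 in day 30 int (SD, n = 5) and 2.95 ± 0.26 in day 10 high cells (SD, n = 4), against 2.73 ± 0.23 in day 30 none and 2.65 ± 0.08 in day 10 none cells (SD, n = 5 each). The differences were 0.23 (95% interval -0.03 to 0.49, adjusted p = 0.455) and 0.30 (95% interval 0.02 to 0.57, adjusted p = 0.252). With no adjustment over genes, 2 of its 24 results passed, that of high against none on day 10 and that of off against int on day 30 (-0.27, 95% interval -0.53 to -0.01). A signal so low can compress a difference, so these intervals bound the array signal and not the transcript.

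The ligands and relatives of the TIGIT, CD226 and CD96 family were measured in the T cells themselves, although their usual source is other cells. Of 8 listed genes 7 were measured and Pvrig was not. Pvr, the shared ligand, was lower in high than in none cells on day 10, at 5.99, 6.04, 5.68 and 5.85 in high cells, against 7.08, 6.83, 7.56, 7.8 and 7.18 in none cells (-1.40 ± 0.24, adjusted p = 8.71e-05). Crtam, an activating receptor of cytotoxic lymphocytes that binds a nectin-like molecule, was higher in int than in none cells on day 30, at 6.46, 7.6, 7.43, 6.41 and 7.8 in int cells, against 4.69, 6.0, 5.28, 5.0 and 4.52 in none cells (2.04 ± 0.35, adjusted p = 0.00016). In high against none 0 of the 7 were called higher and 1 lower, where 5.25% of all genes were called, with a median of -0.12, against 0.01 over all genes. In day 30 int against none 1 was higher and 0 lower, where 2.21% were called (median 0.05, against -0.01). Nectin2, which encodes the other TIGIT ligand, had group means of 3.18 to 3.7 and was not called.

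Around HVEM, 4 of 4 genes were measured, and 2 of these rose with Cd160 in high cells on day 10. Tnfsf14, the HVEM ligand LIGHT, stood at 3.57, 3.9, 3.38, 4.26 and 3.98 in none cells, 3.93, 3.87, 4.26 and 3.87 in int cells, and 4.74, 5.1, 5.84 and 5.96 in high cells. It was higher by 1.43 ± 0.35 than in int (adjusted p = 0.0113) and by 1.59 ± 0.33 than in none cells (adjusted p = 0.00113). Btla, the inhibitory HVEM receptor, stood at 8.66, 8.52, 8.51 and 8.7 in high cells, against 7.38, 7.99, 7.12, 7.86 and 7.47 in none cells (1.03 ± 0.23, adjusted p = 0.00294). HVEM itself (Tnfrsf14) was not called, with group means of 4.57 to 5.0. In high against none 5.25% of all genes were called, and the median over the 4 genes was 0.67, against 0.01 over all genes.

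The 7 genes listed around TIM-3, namely other TIM genes, TIM-3 ligands and Bag6, were all measured and gave no call in any comparison. Group means of Havcr1, Timd2 and Timd4 lay between 2.52 and 3.22, near the low end of the scale. Lgals9 (galectin-9) ran from 8.89 to 9.39 and Hmgb1 from 10.1 to 10.57. Of the 4 CD200 receptor genes, Cd200r4 was lower on day 30 in low (-1.37 ± 0.26, adjusted p = 0.00228), int (-1.37 ± 0.26, adjusted p = 0.000619) and off cells (-1.16 ± 0.26, adjusted p = 0.0282) than in none cells, with 3 of 5 arrays below all none arrays each time. Each time this was 1 of 4 genes, where 0.654%, 2.21% and 0.266% of all genes were called. The 3 comparisons share the day 30 none arrays, on which Cd200r4 ran from 3.16 to 5.07. Its signal was 2.82 to 3.76 on day 10 none and 2.62 to 3.12 on naive arrays, near the low end of the scale. The 3 differences thus go with a higher signal in the shared none arrays. Cd200r1, the CD200 receptor, was lower in day 10 high than in naive cells, at means of 3.88 and 5.11 (-1.22 ± 0.30, adjusted p = 0.00684), without overlap, and also without naive replicates 3 and 4 (-1.39, adjusted p = 0.00555).

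Among the signalling partners of these receptors, 9 of 10 were measured and Lck was not. Ptpn11, the phosphatase SHP-2 that inhibitory receptors recruit, was higher than in none cells at the int dose on both days, at high antigen on day 10 and at low antigen on day 30. On day 10 it stood at 6.23, 6.6, 6.02, 5.36 and 6.1 in none cells, 7.78, 6.83, 8.48 and 8.12 in int cells, and 7.91, 9.06, 8.58 and 8.93 in high cells. The rises over none were 1.74 ± 0.32 (adjusted p = 0.000754) and 2.56 ± 0.32 (adjusted p = 1.44e-07), without overlap. In low cells on day 10 it averaged 6.43, against 6.06 in none cells, and was not called (0.36, 95% interval -0.24 to 0.97, adjusted p = 1). On day 30 it was higher than in none cells by 1.36 ± 0.30 in low (adjusted p = 0.0142), 1.89 ± 0.30 in int (adjusted p = 4.8e-05) and 1.55 ± 0.30 in off cells (adjusted p = 0.00871). Itgal, the LFA-1 chain that partners CD226, was higher in int than in none cells on day 10 (0.65 ± 0.15, adjusted p = 0.012) and on day 30 (0.69 ± 0.14, adjusted p = 0.00184). Fyn, a kinase that phosphorylates CD226, was higher in int cells on day 30 (0.86 ± 0.17, adjusted p = 0.00149). Of the 9 genes, 2 rose and 0 fell in int against none on day 10 (median 0.28, against -0.01 over all genes), 3 and 0 in high against none (0.30, against 0.01) and 3 and 0 in int against none on day 30 (0.18, against -0.01). The shares of all genes called in these comparisons were 1.24%, 5.25% and 2.21%. Between days, where the sort series differs as well, falls were called. In off against day 10 int cells 0 rose and 4 fell (median -0.53, against 0.02), where 1.94% of all genes were called. In day 30 against day 10 none cells 0 rose and 2 fell (median -0.26, against 0.02), where 3.43% were. The lists were chosen with earlier results of these data known.

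Genes with the most similar pattern to each member were found by Pearson's r of the 9 group means among 307 genes whose means spanned at least 2 on the log2 scale. For Tigit these were Gpm6b (r = 0.985), Ptger2 (0.981) and Hif1a (0.974), and for Cd200 they were Timp2 (0.955), Tox (0.942) and Plxdc2 (0.938). Cd160 was closest to Ckb (0.955), Kif15 (0.944) and Stfa3 (0.928), the second of which encodes a mitotic kinesin. For Cd96 the closest were Sit1 (0.882), Ifit1bl1 (0.879) and Abi3 (0.862), and for Cd226 they were Sit1 (0.767), Gm19705 (0.763) and Sytl2 (0.745), with Sit1 shared by both. For Havcr2, whose own means spanned 0.31, the values were 0.851 for Nfil3, 0.831 for Tnfrsf4 and 0.826 for Slc9b2. These are descriptions over 9 points of the same arrays.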

How the data were processed

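Per the labels' protocols, 0.1 to 30 ng of RNA (integrity above 8) from each sort went through Ovation Pico amplification and biotin labelling before hybridization, 1 sample to each of 43 single-colour arrays. The authors deposited 1 log2 signal for each of 41345 probe sets, to 2 decimals. The log2 scale was judged from their range, 1.46 to 13.87, and how background, summarization and normalization were handled is not given in the sources used here. Medians of single arrays were between 3.28 and 3.44.

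Probe sets with 1 symbol (23521) were kept, and of several for a gene the one with the highest mean over all arrays, which left 22180 genes. A mean for each of 9 groups was fitted with limma 3.58.1 in R 4.3.3 (lmFit, eBayes with a trend). The 22 differences and 2 tests of a difference between days were adjusted by Benjamini-Hochberg over all genes and called under 0.05. The test was also run on simulated data, with changes planted in a single group and an equal spread in all groups. That run does not cover groups whose spreads differ.

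All 6 members were tested in every comparison and enter its count of members called, but values of uncalled members are not given for every comparison. Of each list of ligands, partners and signalling genes, counts and up to 4 called genes with the largest change were named, and for each member the 3 genes with the most similar group means. Genes of other cell types are sample checks, and those named beside results (Eomes, Thy1, Klrb1c, Cd22 and the myeloid ones) were chosen after their values were seen. So were Itgal, the motifs and, for the off arrays, Ptpn11. List genes with no call were named for their role. The members and lists were chosen with earlier results of these data known.

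Same-numbered samples did not deviate together (correlations of -0.187 to 0.208 within comparisons, in no comparison all over 0.1), so samples were not paired. Alternatives were a block for the number, no trend, array weights, quantile normalization, dim genes left out (a signal of 5 was required on at least 4 arrays), the mean of all probe sets, only the groups compared, and arrays left out.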

Additional observations from a re-analysis of the deposited data

Results flagged for a closer look

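A gap test for a single array far from its group (Dixon's, 95% level) was run on 54 combinations of gene and group, and 3 were marked, about as many as the 1 in 20 that chance gives. Cd96 on day 10 low replicate 5 was 8.57, where the other 4 low arrays lay between 9.48 and 9.68. With that array left out, Cd96 was called lower in int than in low cells on day 10 (-0.75, adjusted p = 0.0348), against -0.56 (adjusted p = 0.364) with it. It was also called with array weights on all arrays (-0.62, adjusted p = 0.023). Cd96 on naive replicate 5 was 9.41, where the other naive arrays lay between 9.79 and 9.88. Cd160 on day 30 low replicate 1 was 6.15, above the 4.06 to 4.63 of the other 4 arrays.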

How the results depend on the processing

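Of 144 results of the 6 genes, 37 were called, 29 of these under all alternative settings other than leaving out 1 array, 26 on leaving out each array in turn, and 24 under both. Among them 0 changed direction, and 8 of 107 uncalled results were called under some alternative. The count of members called moved in off against day 10 int cells (2, and 1 without the trend or with quantile normalization) and in high against int (1, and 2 with array weights or without dim genes). In day 30 low against naive it was 2, and 1 with array weights, with only the groups compared or without naive replicates 3 and 4 (also without day 10 none replicate 4 and high replicate 2). In day 10 none and low against naive it was 2, and 1 in both settings without those naive arrays. With only the groups compared it was 0 in off against none (1 otherwise), and 1 in off against int and in day 30 int against low (2 in the reported fit). In the last pair it was 3 in off against int with array weights or without dim genes, through Cd200, and 3 in day 30 int against low without dim genes, through Cd226. On leaving out each array, it ranged from 1 to 3 in day 10 int against low, 0 to 1 in high against int, 0 to 3 in off against int, 1 to 3 in day 30 int against low, 0 to 1 in day 30 against day 10 low, 0 to 2 in off against day 10 int, and 1 to 2 in day 10 none and in day 30 low against naive. In day 10 int, day 10 high and day 30 int against naive it then ranged from 2 to 3. Under the other settings the count was 2 to 3 in day 10 int against low and 3 to 4 in high against naive. With the replicate number as a replicate block, which the check of pairing did not bear out, the member counts were equal except in day 30 int against naive (3, against 2), through Cd226 (-1.17, adjusted p = 0.0462). That call was also made with quantile normalization (-1.23, adjusted p = 0.0481), without dim genes (-1.17, adjusted p = 0.0311) and with only the groups compared (-1.17, adjusted p = 0.0412), and Cd226 in high against naive was called with quantile normalization (-1.32, adjusted p = 0.0404) and without dim genes (-1.24, adjusted p = 0.0331). Over the settings that keep all arrays or leave out several, the number of all genes called ranged more widely. On day 10 it was 0 to 13 in low against none (1 in the reported fit), 258 to 581 in int against none (276), 110 to 354 in int against low (120) and 345 to 726 in high against int (664). On day 30 it was 71 to 223 in low against none (145), 292 to 538 in int against none (491), 18 to 64 in off against none (59), 35 to 117 in off against int (103) and 45 to 140 in int against low (121). Between days it was 353 to 1061 for none (761), 385 to 1341 for low (636), 143 to 340 for int (158) and 377 to 770 for off against day 10 int (430), and 6 to 16 (7) and 10 to 29 (20) for the differing effects of low and int. Against naive it was 337 to 1071 (733), 374 to 1289 (769), 411 to 958 (698) and 623 to 1112 (1068) for day 10 none, low, int and high, and 438 to 974 (961), 433 to 898 (811) and 623 to 1081 (967) for day 30 none, low and off. The causes were not tested.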

Other observations

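Against naive cells, 5 of the 9 measured signalling genes were higher and 0 lower in day 10 int cells, where 3.15% of all genes were called (median 0.63, against -0.02 over all genes). In the other comparisons with naive cells, 1 was higher in none, 1 in low and 2 in high cells on day 10, and 1 in none, 1 in low, 2 in int and 1 in off cells on day 30. Besides, 1 was lower in day 30 none and 1 in day 30 int cells, and the medians ran from -0.13 in day 30 low to 0.41 in day 30 int cells. Inpp5d, the lipid phosphatase SHIP-1 that TIGIT recruits, was higher than in naive cells on day 10 in none (0.76 ± 0.18, adjusted p = 0.0081), low (0.77 ± 0.18, adjusted p = 0.00689) and int cells (0.79 ± 0.19, adjusted p = 0.01). Without naive replicates 3 and 4, a setting added after the data were seen, the Inpp5d differences were 0.81 (adjusted p = 0.0314), 0.82 (adjusted p = 0.0263) and 0.83 (adjusted p = 0.0295). Dok1, an adaptor that dampens receptor signalling, was higher in day 10 int cells (1.20 ± 0.28, adjusted p = 0.00553), and by 1.32 (adjusted p = 0.0141) without those arrays. Ltb, which encodes lymphotoxin beta, was lower on day 30 in int cells (-1.14 ± 0.21, adjusted p = 0.00305) and off cells (-1.03 ± 0.21, adjusted p = 0.0035) than in day 10 int cells.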
